A study of Mus musculus with 8 samples.

Results

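Nuclear factor κB (NF-κB) is a family of Rel proteins that bind DNA as dimers and turn on genes of inflammation, cell adhesion and survival. In resting cells the dimers are held in the cytoplasm by inhibitors of κB (IκB). Receptors for TNF, IL-1 and microbial products signal through adaptors and kinases to the IκB kinase complex, which marks IκB for breakdown, and several IκB, Rel and ubiquitin-editing genes are themselves switched on by NF-κB and so close a feedback loop. In the liver, Kupffer cells, endothelium and hepatocytes all respond through this pathway.

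The genes described here were 36 NF-κB genes chosen by name, out of 35975 genes with a transcript in the table. No cut on a measured value was used, but earlier results of these data were known when the genes were chosen. They comprised 29 components (receptors and a ligand, adaptors and kinases, the IκB kinase, inhibitors and Rel proteins) and 7 target genes. The Rel, IκB and ubiquitin-editing genes that NF-κB itself induces (10 of the 29 components) were also followed as a group, called feedback components below. RNA was measured in whole liver of C57BL/6 mice (C57BL/6J in the study's methods) aged 8 to 10 weeks at purchase, which had a portal vein catheter and an osmotic pump and were housed singly after surgery. For 2 weeks the pump delivered either normal saline (NS, 4 mice, NS1 to NS4) or 55 mM 4-hydroxyphenylacetic acid in normal saline (4-HPAA, 4 mice, HP1 to HP4), a product of gut bacterial metabolism of dietary flavonoids. Both groups therefore carried the surgery and the catheter, and no inflammatory stimulus beyond it is named in the labels. The comparison asks whether delivery of this metabolite to the liver went with a different level of these RNAs.

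The 8 libraries held 29559978 to 30673398 estimated counts, and the test covered the 12883 genes that reached 10 counts in all 8. Of the 36 NF-κB genes 33 were tested, which were all 29 components and 4 of the 7 targets. The 3 that fell below the minimum were Ccl2, Il1b and Tnf. Hepatocyte markers summed to 106773 to 134127 CPM (counts scaled to a common library size) and marked every library as liver, and Y-linked genes were expressed in all 8 (152 to 180 CPM in sum). Libraries differed in other cell types within both groups. Summed Kupffer cell markers (11 genes) ran from 127 to 406 CPM in NS and from 122 to 353 CPM in 4-HPAA mice, and summed red blood cell markers were 2560 CPM in NS2 and 734 CPM in HP4 against 152 to 376 CPM in the other 6.

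κB sites near the start of the genes are shown first, because they are the sequence to which these proteins bind and were found in a larger share of the feedback genes than of the other genes listed. The κB consensus (GG, then purines, any bases, pyrimidines and CC, 10 letters that read as the same pattern on either strand) was searched in the 250 bases before and 50 after each RefSeq gene start (GRCm38.p6). At least 1 match was found in 12 of the 29 NF-κB genes with an entry, or 41.4%, against 9.55% of 27025 genes and 8.46% of all 32851 windows. All 7 feedback components with an entry held a match (Nfkbia, Nfkbie, Tnip1, Tnfaip3, Rel, Nfkb2 and Bcl3), as did 4 of 17 other components (Tlr2, Cyld, Map3k7 and Irak1) and 1 of 5 targets (Cxcl1). The shares are descriptions, and a match is not evidence of binding in these livers. A single stretch per gene is printed here, with the match in capitals and overlapping matches joined, for the feedback inhibitors Nfkbia and Tnip1, the Rel protein gene Rel, the receptor gene Tlr2, the inhibitor Cyld and the target Cxcl1, each read 5′ to 3′ on the strand of its gene.
Nfkbia, minus strand, chr12:55492657-55492686, match starting at -29 from the gene start: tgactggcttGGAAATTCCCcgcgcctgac
Tnip1, minus strand, chr11:54962979-54963008, match starting at -58: ctccatcatgGGGGAATTCCCCtcctgcct
Rel, minus strand, chr11:23771042-23771071, match starting at -92: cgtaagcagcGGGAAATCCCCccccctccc
Tlr2, minus strand, chr3:83841762-83841791, match starting at -173, with a further match at -8 not shown: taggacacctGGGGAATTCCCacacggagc
Cyld, plus strand, chr8:88696863-88696892, match starting at -155: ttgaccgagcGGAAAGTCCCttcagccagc
Cxcl1, plus strand, chr5:90891164-90891193, match starting at -71: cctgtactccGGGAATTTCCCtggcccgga
The stretches lay upstream of the GENCODE gene as well, except that of Tlr2, which straddled its start.

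The components were expressed at widely different levels, given here as TPM (counts divided by transcript length and scaled to the same total in each library), in NS mice as mean ± SD with n = 4. The most abundant were Hmgb1, a chromatin protein that acts as an alarm signal when it leaves the cell (116 ± 8.14 TPM), and Chuk, which encodes the kinase IKKα (101 ± 6.52 TPM). Nfkbia, the main classical inhibitor IκBα, followed at 51.9 ± 8.04 TPM and the TNF receptor gene Tnfrsf1a at 40.9 ± 4.04 TPM. The cytokine target Tnf was lowest at 0.0746 ± 0.0520 TPM, on 4 counts or fewer per liver. In NS mice 17 of the 36 genes were above 10 TPM and 5 were under 1 TPM (Relb, Tlr2, Il1b, Ccl2 and Tnf).

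**Figure D1:**
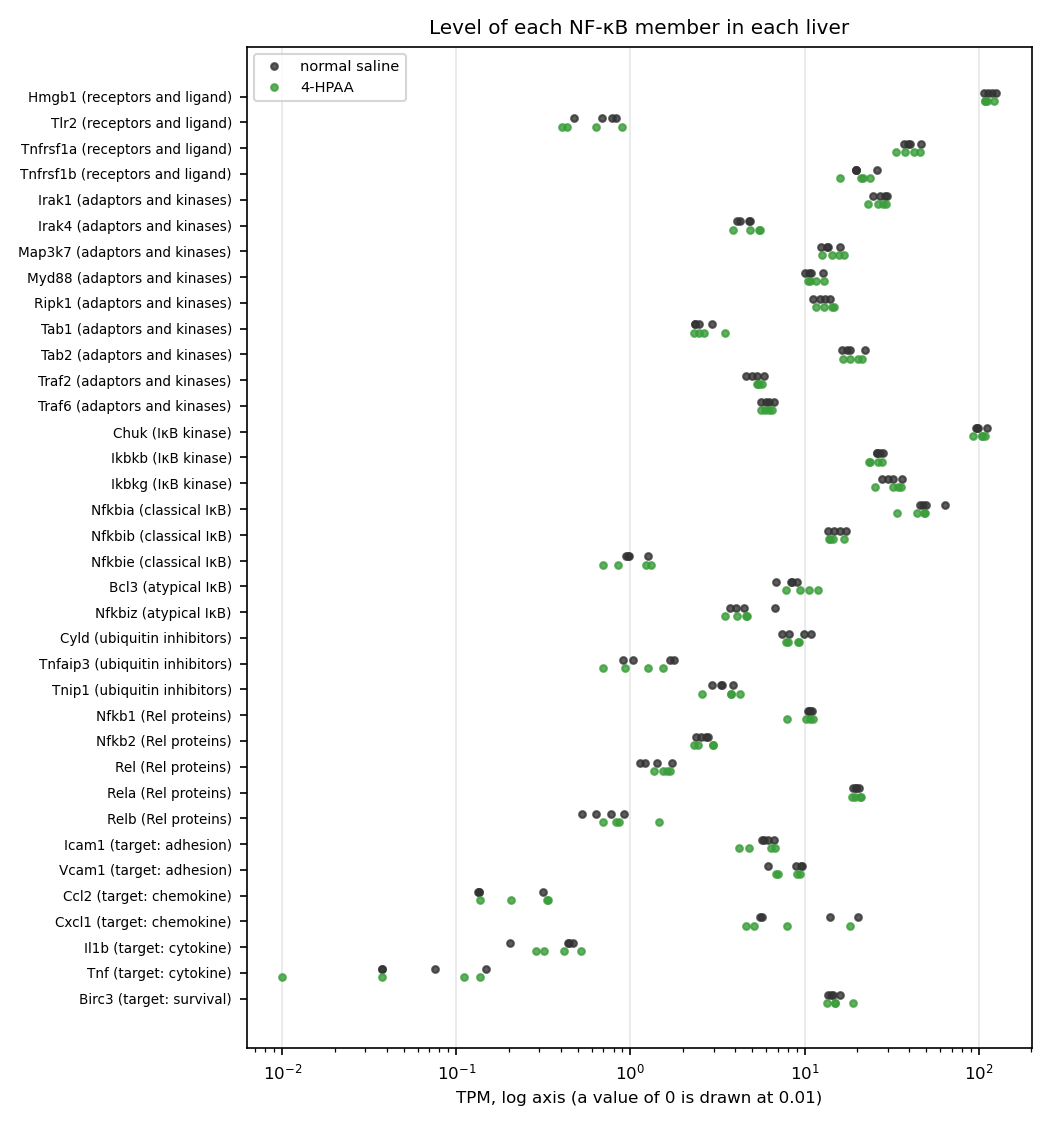
TPM (log axis) of the 36 NF-κB genes in each of the 4 normal saline (black) and 4 4-HPAA (green) livers, ordered by role, with 1 point per liver. Levels run from 116 TPM for Hmgb1 to 0.0746 TPM for Tnf (NS means), and the points of the groups overlap for each gene.

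In the order of NS levels, 26 of the 35 pairs of neighbouring genes had overlapping ranges over the 4 mice, so that their order was not fixed. Among genes that form a complex or a dimer, the IκB kinase subunit Chuk was at 101 TPM, against 31.6 ± 3.48 TPM for Ikbkg (the scaffold NEMO) and 27.0 ± 1.03 TPM for Ikbkb (the kinase IKKβ). Of the Rel proteins, Rela (p65) was at 19.7 ± 0.660 TPM and Nfkb1 (p105, the precursor of p50) at 10.7 ± 0.268 TPM. The other 3 were lower, with Nfkb2 (p100, the precursor of p52) at 2.60 ± 0.187, Rel at 1.38 ± 0.270 and Relb at 0.715 ± 0.172 TPM. The Rela, Nfkb1, Nfkb2 and Rel ranges did not overlap one another in NS mice, and neither did the Rel and Relb ranges.

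No NF-κB gene passed the test between the groups. Across all genes, the quasi-likelihood F test of edgeR, adjusted by Benjamini-Hochberg over 12883 genes, called 0% at a threshold of 0.05, and 0 of the 33 NF-κB genes were called. At an unadjusted p under 0.05 it called 1.75% of all genes (225) and again 0 of the 33. DESeq2 called 0.0155% of 12868 genes (2 genes, neither of them in the list) and had 1 of the 33 at an unadjusted p under 0.05, and limma-voom called 0 of the 33. The 4 NS and 4 4-HPAA values did not overlap for 1.2% of all genes and for 0 of the 33. Leaving out NS2 and HP4, the livers with most globin RNA (a choice made after the data were seen), also left 0 of 33.

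The log2 fold changes, 4-HPAA over NS, were small in both directions. There were 16 above 0 and 17 below, with a median of -0.0031 against 0.00071 over all genes, and the median size was 0.06 against 0.07. They ran from -0.23 (Tnfaip3) to 0.36 (Relb). The 95% interval of the fold change lay within 2-fold either way for 32 of the 33, the exception being Cxcl1, and within 1.5-fold for 28, the exceptions being Relb, Bcl3, Tnfaip3, Tlr2 and Cxcl1. The narrowest interval reached 0.15 on either side of the estimate (Ikbkb) and the widest 1.20 (Cxcl1). For most of these genes the 8 livers thus limited any difference to less than 1.5-fold at the 95% level, whereas the intervals of those 5 reached past it. In whole liver, fewer cells of a type and less RNA per cell cannot be told apart.

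**Figure D2:**
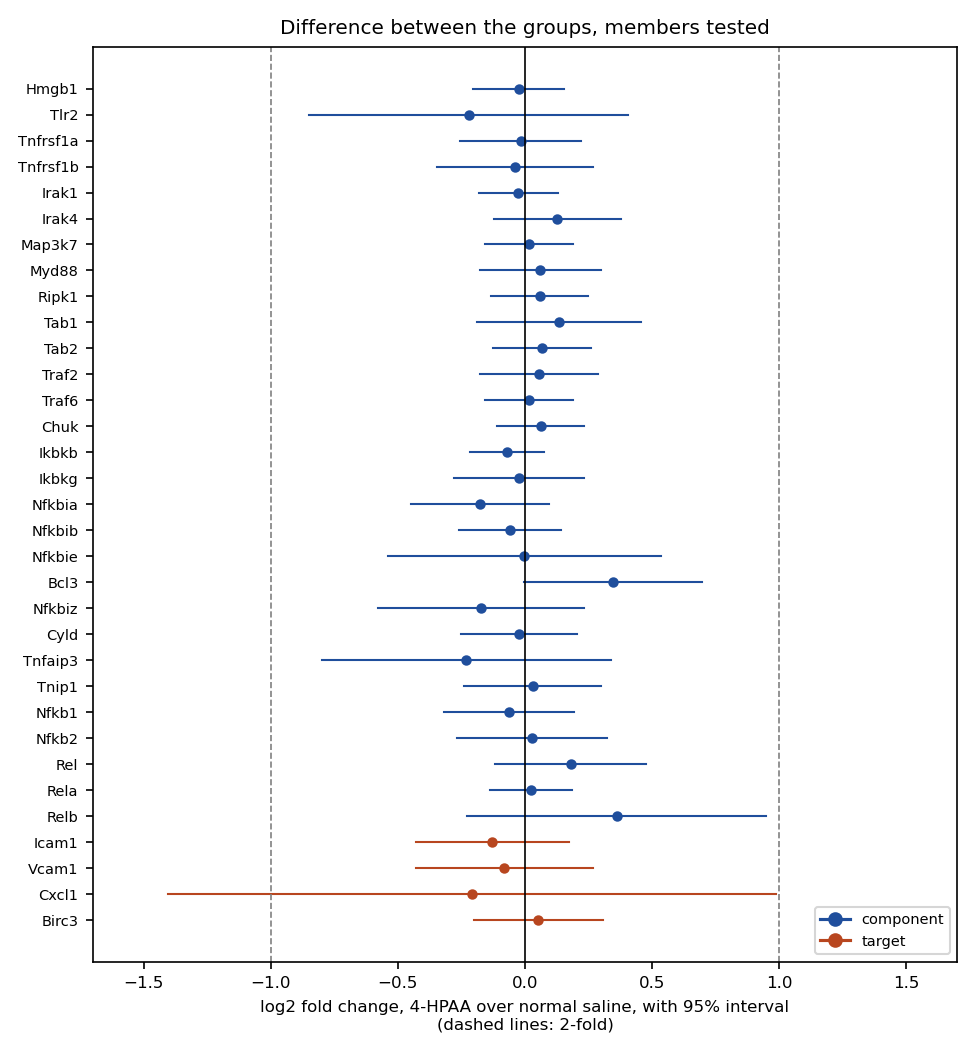
log2 fold change (4-HPAA over normal saline, n = 4 each) of the 33 tested NF-κB genes with the 95% interval from the edgeR fit, components in blue and targets in red, with dashed lines at 2-fold. Every interval includes 0, the Bcl3 interval starts just below it, and only the Cxcl1 interval crosses the 2-fold line.

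Receptors and the ligand are described first, from here on in CPM normalised by TMM, a scale that does not compare genes with one another. Tnfrsf1a (TNF receptor 1), which is present on most liver cells, measured 47.0, 59.5, 46.8 and 52.4 CPM in NS1 to NS4 and 55.6, 55.5, 47.4 and 44.7 CPM in HP1 to HP4. Its groups overlapped almost fully (log2 fold change -0.02, SE 0.11, edgeR adjusted p = 1.00). Tnfrsf1b (TNF receptor 2), a receptor mostly of blood-derived and endothelial cells, measured 58.0, 46.9, 45.6 and 46.8 CPM in NS mice and 51.1, 53.8, 35.3 and 51.6 CPM in 4-HPAA mice. NS1 stood above the other NS mice and HP3 below the other 4-HPAA mice, and the log2 fold change was -0.04 (SE 0.14, edgeR adjusted p = 1.00). Hmgb1 varied between 126 and 150 CPM over the 8 livers, with a log2 fold change of -0.02 (SE 0.08).

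Tlr2, the receptor for bacterial lipoproteins, was the least abundant receptor on the list. It measured 1.22, 1.48, 1.51 and 0.893 CPM in NS1 to NS4 and 1.22, 1.60, 0.776 and 0.769 CPM in HP1 to HP4. Livers of both groups were thus at a high and a low level, and the log2 fold change of -0.22 (SE 0.28, 95% interval -0.85 to 0.41, edgeR adjusted p = 1.00) was below the within-group SD of 0.30. It was -0.47 without HP2 and -0.09 without HP3. The 3 livers with most Tlr2 (HP2, NS3 and NS2) were also the 3 with most summed Kupffer cell markers (353, 267 and 406 CPM), and NS4 and HP4, low in Tlr2, had the least (127 and 122 CPM). HP3, also low in Tlr2, had 199 CPM of Kupffer markers, more than the 160 CPM of NS1. The part of Kupffer cell number in the Tlr2 values was not tested.

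The 9 adaptors and kinases between the receptors and the IκB kinase were among the steadiest RNAs of the list. Their median within-group SD was 0.11 on the log2 scale, against 0.17 over all genes, and every interval lay within 1.5-fold. This SD also depends on the number of counts, for which the genes were not matched. Myd88, the adaptor of Toll-like and IL-1 receptors, ranged from 12.3 to 16.1 CPM, and its kinases Irak1 and Irak4 from 48.8 to 56.0 and from 7.03 to 9.25 CPM. Traf6, the ubiquitin ligase of that branch, ranged from 20.5 to 23.7 CPM, and Traf2 and Ripk1, which serve TNF receptor 1, from 6.90 to 8.82 and from 24.8 to 31.0 CPM. The kinase Map3k7 (TAK1) ranged from 39.0 to 46.7 CPM, and its binding partners Tab1 and Tab2 from 3.30 to 5.03 and from 41.7 to 51.9 CPM.

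The log2 fold changes of these 9 were above 0 for 8 genes and below 0 for Irak1 (-0.03, SE 0.07), with a median of 0.06. The highest were those of Tab1 (0.13, SE 0.14) and Irak4 (0.13, SE 0.11). None reached an unadjusted p under 0.05, and the groups overlapped for each gene. Without NS2 and HP4 the values of Traf2 (-0.04), Traf6 (-0.0025), Myd88 (-0.02) and Map3k7 (-0.03) were below 0 instead.

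The IκB kinase subunits form the point at which the receptor branches meet. Chuk measured 150, 152, 172 and 158 CPM in NS1 to NS4 and 152, 167, 168 and 173 CPM in HP1 to HP4 (log2 fold change 0.06, SE 0.08, edgeR adjusted p = 1.00). Ikbkb lay between 45.8 and 50.02 CPM in NS mice and between 43.7 and 47.5 CPM in 4-HPAA mice, where HP4 was the lowest (log2 fold change -0.07, SE 0.07). Ikbkg measured 74.7, 77.7, 86.4 and 89.1 CPM in NS mice and 66.7, 78.4, 80.1 and 97.4 CPM in 4-HPAA mice, so that the lowest and the highest liver were both in the 4-HPAA group (log2 fold change -0.02, SE 0.11).

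Among the inhibitors, Nfkbia (chr12:55489410-55492647, GRCm38, minus strand) was the feedback gene with the highest level. It measured 55.6, 41.5, 42.1 and 46.7 CPM in NS1 to NS4 and 41.4, 44.1, 45.1 and 33.6 CPM in HP1 to HP4. NS1 was the highest of the 8 livers and HP4 the lowest, while the other 6 lay close together irrespective of group. The log2 fold change was -0.18 (SE 0.12, 95% interval -0.45 to 0.09, edgeR adjusted p = 1.00), and -0.08 without NS1. The other classical inhibitors were flatter, with Nfkbib (IκBβ) between 10.8 and 12.8 CPM (log2 fold change -0.06, SE 0.09) and Nfkbie (IκBε) at -0.0031 (SE 0.24). Nfkbie measured 1.38, 1.44, 1.44 and 1.96 CPM in NS mice and 2.06, 1.83, 1.26 and 1.05 CPM in 4-HPAA mice, which spanned the NS range on both sides.

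The atypical inhibitors act in the nucleus, where they can also assist transcription. Bcl3 (chr7:19808462-19822770, minus strand), a partner of p50 and p52 dimers, measured 8.14, 7.27, 6.20 and 7.94 CPM in NS1 to NS4 and 9.11, 6.90, 10.9 and 10.7 CPM in HP1 to HP4. HP1, HP3 and HP4 lay above all NS mice and HP2 lay among them. With a log2 fold change of 0.35 (SE 0.16, 95% interval -0.0023 to 0.70), Bcl3 had the smallest unadjusted p of the list (0.0513) and an adjusted p of 1.00 in edgeR. The value was 0.47 without HP2 (unadjusted p = 0.00542, adjusted p = 1.00 by edgeR) and 0.27 without HP3, and DESeq2 gave 0.35 with an unadjusted p of 0.0476. In the main edgeR fit 0.0513 was the smallest of 33 unadjusted p, where 1.75% of all genes were under 0.05. The unadjusted p of Bcl3 was also under 0.05 in edgeR without NS1 (0.0481), with a filter of 10 counts in sum (0.0464) and with no filter (0.0391). No setting called Bcl3 after adjustment, and leaving out 1 liver gave 0.27 to 0.47. The 8 livers do not settle whether Bcl3 differed.

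Nfkbiz (IκBζ), which is induced by Toll-like receptor signals, measured 14.3, 8.44, 8.69 and 9.96 CPM in NS mice and 10.3, 10.1, 7.31 and 9.09 CPM in 4-HPAA mice. NS1 alone stood well above the other livers. The log2 fold change of -0.17 (SE 0.18, edgeR adjusted p = 1.00) became 0.03 when NS1 was left out.

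The ubiquitin-editing inhibitors remove or bind the ubiquitin chains that carry the signal. Tnfaip3 (A20; chr10:19000910-19015657, minus strand) measured 4.58, 2.54, 2.82 and 3.85 CPM in NS1 to NS4 and 3.77, 3.53, 2.49 and 1.96 CPM in HP1 to HP4. NS1 was again the highest liver and HP4 the lowest, and the rest of both groups were interleaved. Its log2 fold change was -0.23 (SE 0.25, 95% interval -0.80 to 0.34, edgeR adjusted p = 1.00), and -0.06 without NS1. Its binding partner Tnip1 ranged from 4.16 CPM in HP4 to 5.48 CPM in HP1 (log2 fold change 0.03, SE 0.12), and the deubiquitinase Cyld from 26.5 CPM in NS2 to 35.6 CPM in NS3 (-0.02, SE 0.10).

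Of the Rel proteins, Rela measured 29.6, 31.4, 28.5 and 30.1 CPM in NS1 to NS4 and 33.0, 29.4, 28.4 and 30.6 CPM in HP1 to HP4. This near-constant level gave a log2 fold change of 0.02 (SE 0.07, 95% interval -0.14 to 0.19). Nfkb1 measured 18.6, 19.1, 19.0 and 18.3 CPM in NS mice and 19.7, 18.9, 19.5 and 13.6 CPM in 4-HPAA mice. HP4 alone was low, and the log2 fold change of -0.06 (SE 0.11) was 0.04 without it. Nfkb2 varied between 4.59 and 6.21 CPM, with both extremes in 4-HPAA mice (log2 fold change 0.03, SE 0.13).

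Rel, best known from lymphoid and myeloid cells, measured 7.63, 5.69, 6.46 and 5.26 CPM in NS mice and 6.53, 6.80, 7.47 and 7.59 CPM in 4-HPAA mice. The 4-HPAA values were the closer to one another, within the NS range (log2 fold change 0.18, SE 0.13, edgeR adjusted p = 1.00). Without NS1 the value was 0.29 (unadjusted p = 0.0454, adjusted p = 1.00 by edgeR). Relb, the partner of p52 in the alternative pathway, measured 0.801, 1.20, 1.18 and 0.893 CPM in NS mice and 1.22, 1.97, 1.10 and 0.944 CPM in 4-HPAA mice. HP2 alone stood high, and the log2 fold change of 0.36 (SE 0.26, 95% interval -0.23 to 0.95, edgeR adjusted p = 1.00) was 0.10 without HP2. Counting protein-coding transcripts alone, an alternative added after the data were seen, raised the Relb estimate to 0.72 (unadjusted p = 0.0292, adjusted p = 1.00 by edgeR).

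**Figure D3:**
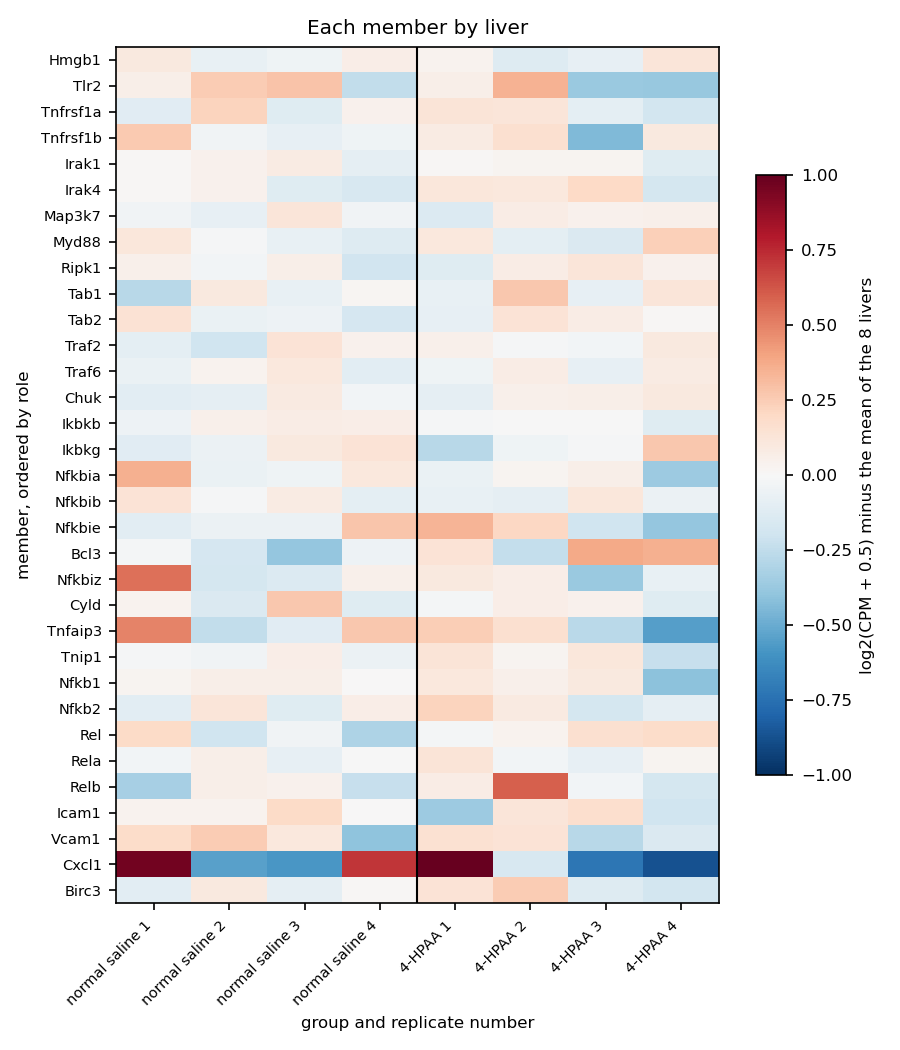
Each of the 33 tested NF-κB genes (rows, by role) in each liver (columns, normal saline left of the line, 4-HPAA right of it), as log2(CPM + 0.5) minus the mean of the 8 livers, with red above and blue below. The Cxcl1 row has the strongest colours, red in NS1, NS4 and HP1, and HP4 is the lowest liver for 12 of the 33 rows, among them Nfkbia, Tnfaip3 and Nfkb1.

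The targets were followed apart from the components, since their RNA is the output of the pathway. Of the 4 that were tested, Birc3, an inhibitor of apoptosis, ranged from 11.8 to 16.1 CPM with a log2 fold change of 0.05 (SE 0.11, edgeR adjusted p = 1.00). The adhesion molecule gene Icam1 measured 8.88, 8.89, 9.94 and 8.66 CPM in NS mice and 6.60, 9.44, 9.77 and 7.45 CPM in 4-HPAA mice. HP1 and HP4 were below all NS mice and the other pair within their range (log2 fold change -0.13, SE 0.14, 95% interval -0.43 to 0.17, edgeR adjusted p = 1.00, and -0.030 without HP1). The other adhesion gene, Vcam1, measured 18.9, 19.8, 17.8 and 12.4 CPM in NS mice and 18.4, 18.3, 13.6 and 15.0 CPM in 4-HPAA mice. The low livers NS4, HP3 and HP4 came from both groups (log2 fold change -0.08, SE 0.16, edgeR adjusted p = 1.00), and leaving out 1 liver gave -0.21 (NS4) to -0.0019 (HP3).

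Cxcl1 (chr5:90891241-90893115, plus strand), a chemokine for neutrophils, was the most variable NF-κB gene. It measured 13.5, 4.43, 4.30 and 11.3 CPM in NS1 to NS4 and 15.9, 5.94, 3.85 and 3.43 CPM in HP1 to HP4. NS1, NS4 and HP1 were high and the other 5 livers low, a split that did not follow the infusion. The within-group SD was 0.88 on the log2 scale, against a median of 0.16 over the 33 genes, and the log2 fold change of -0.21 (SE 0.54, 95% interval -1.40 to 0.99, edgeR adjusted p = 1.00) ranged from -0.93 without HP1 to 0.12 without NS1. Summed Kupffer cell markers in NS1, NS4 and HP1 were 160, 127 and 260 CPM, against 122 to 406 CPM in the other 5 livers, and their part in the Cxcl1 values was not tested.

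**Figure D4:**
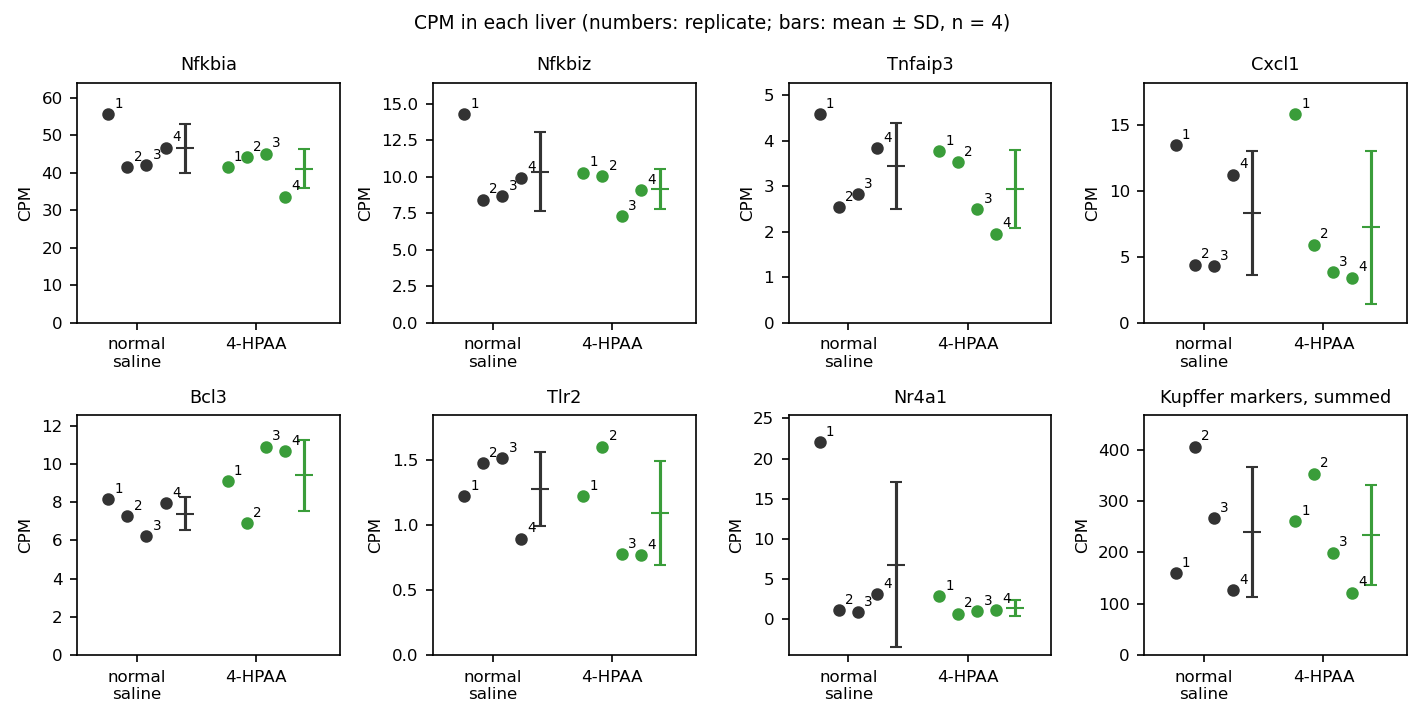
CPM in each liver (vertical axis; points, numbered by replicate) for 6 NF-κB genes, the immediate-early gene Nr4a1 and the summed Kupffer cell markers, in normal saline (black) and 4-HPAA (green) mice, with the mean ± SD (n = 4) beside each group. NS1 is the highest liver for Nfkbia (55.6 CPM), Nfkbiz (14.3 CPM), Tnfaip3 (4.58 CPM) and Nr4a1 (22.1 CPM), and Cxcl1 is high in NS1, NS4 and HP1.

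The other 3 targets were at the limit of detection. Ccl2, the monocyte chemokine, had 2, 2, 2 and 5 estimated counts in NS1 to NS4 and 5, 3, 5 and 2 in HP1 to HP4. Il1b, the inflammasome cytokine gene, had 9, 10, 11 and 5 counts in NS mice and 12, 10, 7 and 6 in 4-HPAA mice. Neither differed between the groups beyond the spread of the mice, with an exact permutation p of 0.286 for Ccl2 (adjusted 0.571) and 0.971 for Il1b (adjusted 0.971, both two-sided, smallest p possible 0.0286). Tnf had 1, 1, 4 and 2 counts in NS mice and 1, 4, 3 and 0 in 4-HPAA mice, and a count of 0 allows up to 3. At this depth a difference in these RNAs was not detectable unless large.

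Kupffer cells, a source of these cytokines, were present by their markers (122 to 406 CPM in sum). Sums for other cell types are given beside them, but CPM sums over different genes do not compare the abundance of cell types. Summed monocyte and neutrophil markers (10 genes) ran from 17.2 to 36.4 CPM in NS and from 17.0 to 37.9 CPM in 4-HPAA mice, most of it Lyz2. Of these 10 genes 6 reached the minimum count in every library. The markers Cd177, Retnlg and Chil3 were at 0.137 CPM or less in every liver. For B cell markers the ranges were 2.73 to 4.79 CPM (NS) and 1.88 to 4.60 CPM (4-HPAA), and for T and NK cell markers 3.27 to 4.76 and 3.01 to 5.20 CPM. Endothelial markers, from the cells in which Icam1 and Vcam1 are typically expressed, ran from 144 to 209 CPM and from 134 to 243 CPM. NS4 and HP4, both low in Vcam1, had the lowest endothelial sums of their groups, but HP3, the 4-HPAA liver with least Vcam1, had 192 CPM, and NS2, with most Vcam1, had 177 CPM. The part of endothelial cell number in the Vcam1 values was not tested. Stellate cell markers ran from 174 to 319 and from 190 to 310 CPM, and cholangiocyte markers from 23.5 to 45.6 and from 24.1 to 38.02 CPM.

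The extremes were not spread evenly over the livers. HP4 was the lowest liver for 12 of the 33 genes (36.4%), and for 20.6% of all tested genes. The 12 were the feedback genes Nfkbia, Nfkbie, Tnfaip3, Tnip1 and Nfkb1, and Ikbkb, Tnfrsf1a, Tlr2, Irak1, Irak4, Birc3 and Cxcl1. The same liver was the highest for 4 of the 33 (Ikbkg, Chuk, Myd88 and Hmgb1). That was 12.1%, against 18.7% of all tested genes. NS1 and NS3 were each the highest liver for 7 of the 33 (21.2%, against 12% of all genes), HP1 for 6 and NS4 for 0. HP4 was also the 4-HPAA liver with the lowest summed Kupffer cell markers and the highest globin RNA, and the part of either in these values was not tested. The feedback components as a group were split, with 5 log2 fold changes above 0 and 5 below and a median of 0.01. Their median within-group SD was 0.21, against 0.17 over all genes, which were not matched to them for counts.

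The wider pathway was also without a call. Of 62 other components (further receptors, adaptors, kinases, inhibitors and cofactors) 55 were tested, with 31 log2 fold changes above 0 and 24 below, a median of 0.01, 0 called after adjustment and 0 at an unadjusted p under 0.05 (edgeR). Of 50 other targets 29 were tested, with 16 above 0 and 13 below, a median of 0.05, and 0 called (edgeR). Of the 29, 1 gene above and 2 below 0 had an unadjusted p under 0.05 (edgeR). Over all tested genes the share with such a p was 1.75%. The targets Csf2, Csf3 and Madcam1 had no count in any liver.

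The 5 wider-list genes with the smallest unadjusted p were all targets, and in 3 of them NS1 stood far above the other livers. Gadd45b, a stress-response gene, was at 3.33 CPM in NS1 and at 1.06 to 1.71 CPM in the other NS mice, with 0.700 to 1.12 CPM in 4-HPAA mice (log2 fold change -1.02, SE 0.37, unadjusted p = 0.0192, edgeR adjusted p = 1.00). The immediate-early gene Nr4a1 was at 22.1 CPM in NS1 and at 0.918 to 3.09 CPM in the other NS mice, with 0.700 to 2.90 CPM in 4-HPAA mice (-2.25, SE 0.98, edgeR adjusted p = 1.00). Lcn2, an iron-binding acute phase protein, likewise was at 17.6 CPM in NS1 and 4.43 to 5.21 CPM in the other NS mice, with 3.67 to 6.98 CPM in 4-HPAA mice (-0.76, SE 0.44, edgeR adjusted p = 1.00). NS1 was thus the highest liver for these 3 targets as well as for Nfkbia, Nfkbiz and Tnfaip3, and also for Rel, Nfkbib, Tnfrsf1b and Tab2. The tested targets Birc3, Icam1, Vcam1 and Cxcl1 were instead highest in HP2, NS3, NS2 and HP1.

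The remaining pair had a log2 fold change above 0, and their groups overlapped. The T cell chemokine Cxcl9 was at 15.8 CPM in HP2 against 6.14 to 8.46 CPM in the other 4-HPAA mice and 4.84 to 7.45 CPM in NS mice (log2 fold change 0.62, SE 0.28, edgeR adjusted p = 1.00). Ier3, an early-response survival gene, ranged from 0.412 to 0.898 CPM in NS and from 0.634 to 1.01 CPM in 4-HPAA mice (0.53, SE 0.29, edgeR adjusted p = 1.00).

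At the level of transcripts, the 36 genes had 222 annotated transcripts in the table, of which 78 had at least 10 estimated counts in every library. None of the 78 was called by edgeR after adjustment over 25977 transcripts, and 5 had an unadjusted p under 0.05, where 3.85% of all transcripts did. These were Nfkb2-201 (log2 fold change 0.72), Rela-206 (0.97), Bcl3-201 (0.41), Tnfaip3-201 (0.94) and Ripk1-202 (0.92). Rela-206 is annotated as a target of nonsense-mediated decay and Ripk1-202 as a retained intron, and both made up a small share of their genes, at 2.61% and 1.33% in NS mice.

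The split of Tnfaip3 between transcripts differed more from liver to liver than its sum did. Tnfaip3-201 held 26.3, 70.6, 18.7 and 48.0 estimated counts in NS1 to NS4 and 87.7, 98.2, 74.1 and 53.0 in HP1 to HP4. The similar Tnfaip3-202 held 114, 59.8 and 50.8 counts in NS1, NS3 and NS4, and under 0.1 in NS2 and in all 4-HPAA mice. The log2 fold change was therefore 0.94 for Tnfaip3-201 and -0.23 for the gene. Both transcripts encode protein and differ little in length (4422 and 4334 bases). How reads shared by both were assigned was not tested. Ikbkg-206 was another such case, with 149 counts in NS4, 303, 88.5 and 392 in HP1, HP2 and HP4, and under 1 in the other 4 livers, while the Ikbkg gene sum varied only between 66.7 and 97.4 CPM. Cyld-201, below the minimum and so not tested, held 0, 0.291, 33.2 and 37.9 counts in NS1 to NS4. In HP1 to HP4 it held 63.9, 72.9, 125 and 127, without overlap. The share of all transcripts without overlap was not computed. The 3 tested Cyld transcripts had log2 fold changes below 0 (-0.20, -0.43 and -0.50).

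Transcripts with a retained intron made up a large share of some NF-κB genes. For Cxcl1, Nfkb1, Icam1, Ikbkb and Chuk the group means differed by less than either group's SD. For Relb, a gene of few counts, they held 32.6% ± 16.1 of the gene's counts in NS and 20.8% ± 11.1 in 4-HPAA mice (SD, n = 4), and this difference, larger than the 4-HPAA SD and smaller than the NS SD, was not tested. For Cxcl1, with the highest share, the values were 46.6% ± 9.66 and 49.7% ± 8.03. Nfkb1 was at 25.0% ± 4.24 and 22.5% ± 3.70, and Icam1 at 24.7% ± 4.60 and 24.4% ± 6.24. For Ikbkb the shares were 17.6% ± 1.87 and 18.8% ± 2.97, and for Chuk 11.4% ± 0.904 and 11.3% ± 1.33. The summed level of these genes thus includes RNA that is not annotated as coding for protein. With protein-coding transcripts alone, 0 of the 33 genes were called (edgeR).

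**Figure D5:**
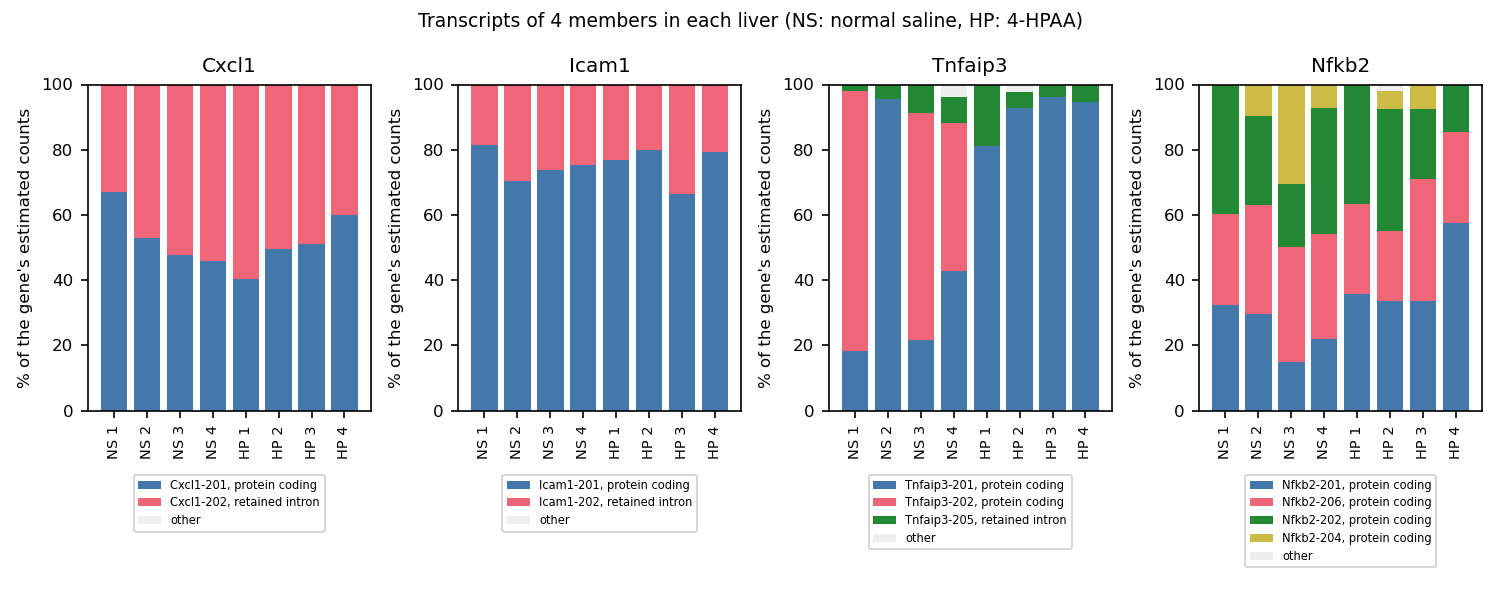
Share of each gene's estimated counts (%) held by its transcripts in each liver (NS, normal saline; HP, 4-HPAA), for Cxcl1, Icam1, Tnfaip3 and Nfkb2, with transcripts that stayed under 5% in every liver shown as other. Retained-intron transcripts take a mean of 46.6% of Cxcl1 in NS mice, and Tnfaip3-202 holds a large share in NS1, NS3 and NS4 and nearly none in NS2 and the 4 4-HPAA livers.

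Some of these genes share exonic sequence with a gene on the opposite strand, and use of strand in the counting was not stated. The shared part was 14.5% of the exonic bases of Nfkbib (with Ccer2), 11.7% of Icam1 (Gm47079), 11.6% of Nfkb2 (AC114539.1), 11.3% of Myd88 (Acaa1a), 7.9% of Irak4 (Twf1), 6.5% of Bcl3 (Gm16175) and 5.2% of Ikbkg (G6pdx). Nfkb2 shared a further 6.5% with Psd. Reads from these parts cannot be told apart without strand. Their effect on the levels of these 7 genes depends also on the level of the overlapping gene, and was not tested.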

How the data were processed

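The authors prepared stranded mRNA libraries (Illumina TruSeq), sequenced them with 100 bp reads and checked them with FastQC 0.11.9, per the labels and the study's methods. The deposited table holds estimated counts (expected counts, not normalised) per Ensembl transcript, made by the authors with kallisto on GRCm38.p6. Of 119414 transcripts, 116728 were assigned to 35975 GENCODE genes, summed and rounded. The other 2686, with 0.703% to 1.06% of the counts, were left out. Groups and replicate numbers came from the labels. Genes with at least 10 counts in all 8 libraries were tested with edgeR 4.0.16 (R 4.3.3, TMM, quasi-likelihood F test, Benjamini-Hochberg over all genes, threshold 0.05, two-sided), with the replicates of each group as the error. Standard errors were taken as the absolute log2 fold change over the root of F, and 95% intervals used the t distribution. Genes under the minimum were compared by an exact permutation test over 70 arrangements. DESeq2 1.42.0 (named in the study), limma-voom 3.58.1, other scalings, filters, blocks and left-out libraries were alternatives. TPM were computed from annotated transcript lengths. Promoter windows came from RefSeq (GRCm38.p6), and 7 of the 36 genes had no entry. Every gene of the list was named, and from the wider pathway lists the 5 with the smallest unadjusted p, while genes named from the marker lists for low levels, and the retained-intron and transcript examples, were picked after their values were seen. The NF-κB genes and the lists were chosen with earlier results of these data known. At a depth of 29559978 to 30673398 counts, precision was limited by the spread of 4 mice per group, which includes counting noise. The part of counting noise in that spread is larger for genes of fewer counts and was not tested. That each library is a separate mouse is taken from the study's methods.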

Additional observations from a re-analysis of the deposited data

Results flagged for a closer look

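In 12 of 98 groups of 4 livers tested, 1 liver lay far from the other 3 (Dixon's test at the 95% level). Chance flags about 1 in 20 groups, or 4.9 here. For the NF-κB genes this was so in 9 of 72 groups, all in CPM. HP4 stood below the other 4-HPAA mice for Nfkb1 (13.6 against 18.9 to 19.7), Ikbkb (43.7 against 47.2 to 47.5) and Irak1 (48.8 against 53.3 to 54.1). HP3 stood apart for Tnfrsf1b (35.3 against 51.1 to 53.8) and, upwards, for Nfkbib (12.6 against 10.9 to 11.1), and HP1 for Map3k7 (39.0 against 44.2 to 45.1). Among NS mice, NS1 was high for Tnfrsf1b (58.0 against 45.6 to 46.9), and NS4 for Nfkbie (1.96 against 1.38 to 1.44) and Ccl2 (0.172 against 0.0641 to 0.0686). The Ccl2 value rests on 5 counts against 2 in each of the other NS mice.

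Of the marker sums, cholangiocyte markers were high in NS1 (45.6 CPM against 23.5 to 27.1), and red blood cell markers in NS2 (2560 CPM against 247 to 376) and in HP4 (734 CPM against 152 to 163).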

How the results depend on the processing

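No NF-κB gene and no gene of the wider lists was called under any alternative run. Over all genes edgeR called 0, DESeq2 called 2, and leaving out 1 library in turn gave 0 to 1, the 1 gene being called without HP1. The log2 fold changes below are 4-HPAA over NS. DESeq2, limma-voom, RLE factors and total counts turned the direction of none of the 33, and a filter of 10 counts in sum or no filter turned only Nfkbie (0.00083 and 0.00073). Leaving out 1 library turned at least 1 value of 18 genes, with the ranges Birc3 -0.034 to 0.11, Cxcl1 -0.93 to 0.12, Cyld -0.078 to 0.072, Hmgb1 -0.078 to 0.012, Ikbkg -0.13 to 0.062, Irak1 -0.059 to 0.0022, Map3k7 -0.0088 to 0.066, Myd88 -0.022 to 0.12, Nfkb1 -0.11 to 0.042, Nfkb2 -0.050 to 0.094, Nfkbie -0.17 to 0.14, Nfkbiz -0.26 to 0.025, Rela -0.015 to 0.054, Tnfrsf1a -0.063 to 0.058, Tnfrsf1b -0.10 to 0.081, Tnip1 -0.010 to 0.11, Traf2 -0.0031 to 0.12, Traf6 -0.017 to 0.055. The mean CPM difference of Il1b, in CPM, ranged from -0.0345 to 0.0353. Without NS2 and HP4, added after the data were seen, 9 turned: Nfkb1 0.048, Nfkbie 0.099, Traf2 -0.036, Traf6 -0.0025, Tnfrsf1a 0.11, Myd88 -0.022, Irak1 0.010, Map3k7 -0.030, Vcam1 0.023. With protein-coding transcripts alone, also added then, 3 turned: Nfkb1 0.0024, Rela -0.017, Map3k7 -0.0085. Fitted as single transcripts, 22 of 78 had the direction opposite to their gene: Nfkb1 0.17, Nfkb2 -0.16 and -0.10, Ikbkb 0.067 and 0.17, Ikbkg 0.27 and 0.024, Chuk -0.11 and -0.17, Tnfaip3 0.94, Traf2 -0.38, Myd88 -0.0032, Irak1 0.12, 0.17 and 0.032, Ripk1 -0.21, Birc3 -0.0076, Vcam1 0.27, Cxcl1 0.077, Hmgb1 0.011, 0.078 and 0.28. The cause of these turns was not tested.

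With the replicate number as a block, edgeR called 0 genes and 0 NF-κB genes and turned no direction (336 genes had an unadjusted p under 0.05). Same-numbered livers correlated at 0.0408 to 0.5002, with 3 of 4 pairs over 0.1. Their mean was 0.247, against -0.0809 for livers of different number. Of the 4-HPAA livers 2 of 4 correlated best with their own number, and the numbers were not taken to pair the mice. Whether livers of the same number shared a step was not tested.

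With 4 mice a group, the widest intervals were those of the RNAs at the lowest depth and of Cxcl1. Ccl2, Il1b and Tnf, at 12 counts or fewer in every library, allow no statement on modest differences. A p that misses the threshold does not show equal levels.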

Other observations

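The acute phase genes, which hepatocytes make under IL-6 and NF-κB signals, were not part of the comparison above. Of 15 such genes 14 had a log2 fold change below 0 and 1 (Saa3) above it, with a median of -0.09, and edgeR called 0 after adjustment. Over all genes 6394 of 12883 were below 0. The split of directions among the 15 was not tested. Apcs (serum amyloid P), named after its values were seen, was the 1 gene with an unadjusted p under 0.05 (edgeR), where 1.75% of all genes had one. Summed levels ran from 17754 to 22531 CPM in NS and from 17495 to 21678 CPM in 4-HPAA mice. Lcn2, with the lowest log2 fold change of the 15 (-0.76) and a high value in NS1, is on both this list and the wider target list.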
